A study of Mus musculus with 10 samples.

Results

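The comparison described here set overloaded mouse plantaris muscle given a blocker of signalling by platelet-derived growth factor (PDGF), called the inhibitor here, against overloaded muscle without it, over 2 overload times together. The plantaris is a fast calf muscle, and it was overloaded by synergist ablation, the surgical removal of neighbouring muscles that leaves the plantaris to carry more load and grow. Members were taken by the sample titles and labels: 4 pools with the inhibitor (2 at 3 d and 2 at 10 d) and 4 pools overloaded for the same times without it, which makes 8 of the 10 pools of the study. All mice were male and of the C57BL/6 strain, and each array carried RNA pooled from 4 muscles. The sources used here give neither the inhibitor's name and dose nor the age of the mice. The other 2 pools came from muscle without overload and entered no average here. Their values are given as a reference level. These 2 pools also entered the choice of the brightest probe set. They helped set the spread in the fits of each time alone and of the difference between times. Whether replicate pools hold muscles of separate animals is not in the labels, and the p-values cover only the spread among these pools, which may be partly technical.

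PDGF ligands are secreted by platelets, macrophages, endothelial cells and other cells and bind the receptor tyrosine kinases Pdgfra and Pdgfrb. In muscle, Pdgfra marks fibro-adipogenic progenitors, the mesenchymal cells that lay down much of the collagen, and Pdgfrb marks pericytes and related perivascular cells. Receptor activation signals through Ras, ERK and PI3 kinase and is a classical stimulus for division and matrix production in these cells.

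The genes that fell over both times fell mostly into mitotic genes and class II major histocompatibility complex (MHC) genes, and both groups are known for short promoter elements. Class II promoters carry a Y box, an inverted CCAAT element bound by NF-Y, and many genes of mitosis carry CCAAT boxes and a TTTGAA element, the core of the cell cycle genes homology region. The 6 windows below are examples picked from called genes of these kinds. All 6 hold CCAAT, which not every window of the called genes did, so they do not stand for its share. Each covers the 200 bases before the annotated start (RefSeq, mouse build GRCm38.p6), written 5′ to 3′ on the gene's strand. Capitals mark CCAAT and TTTGAA on either strand (ATTGG and TTCAAA when reversed), and the motifs can share at most 1 base.
H2-Eb1 (chr17:34305667-34305866, plus strand): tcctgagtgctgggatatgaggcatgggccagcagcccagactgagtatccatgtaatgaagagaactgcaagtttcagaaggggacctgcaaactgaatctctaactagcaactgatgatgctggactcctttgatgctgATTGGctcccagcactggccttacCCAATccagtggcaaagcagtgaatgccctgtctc
H2-Aa (chr17:34287824-34288023, minus strand): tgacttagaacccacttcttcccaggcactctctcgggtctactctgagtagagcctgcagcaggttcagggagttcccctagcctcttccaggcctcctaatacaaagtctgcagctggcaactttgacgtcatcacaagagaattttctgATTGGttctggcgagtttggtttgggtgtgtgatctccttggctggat
Top2a (chr11:99024190-99024389, minus strand): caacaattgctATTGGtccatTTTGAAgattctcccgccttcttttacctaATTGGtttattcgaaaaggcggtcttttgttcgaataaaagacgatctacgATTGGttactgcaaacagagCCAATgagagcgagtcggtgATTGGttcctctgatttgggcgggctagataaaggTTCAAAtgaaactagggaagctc
Mki67 (chr7:135716380-135716579, minus strand): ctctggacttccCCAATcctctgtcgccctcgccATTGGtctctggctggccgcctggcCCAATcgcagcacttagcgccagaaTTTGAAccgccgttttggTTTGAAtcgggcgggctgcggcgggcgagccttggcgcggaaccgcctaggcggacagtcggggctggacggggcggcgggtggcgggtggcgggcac
Ccnb2 (chr9:70421555-70421754, minus strand): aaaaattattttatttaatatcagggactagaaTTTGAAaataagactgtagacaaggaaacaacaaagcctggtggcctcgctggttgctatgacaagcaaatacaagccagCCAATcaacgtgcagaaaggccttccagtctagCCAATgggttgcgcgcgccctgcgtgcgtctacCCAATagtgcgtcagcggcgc
Cks2 (chr13:51645032-51645231, plus strand): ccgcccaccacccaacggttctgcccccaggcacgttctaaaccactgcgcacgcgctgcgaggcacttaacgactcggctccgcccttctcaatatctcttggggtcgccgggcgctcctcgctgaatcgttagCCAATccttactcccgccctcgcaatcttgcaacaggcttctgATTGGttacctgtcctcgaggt
Top2a held 5 CCAAT and 2 TTTGAA matches, Mki67 held 3 and 2, and Ccnb2 held 3 and 1. H2-Eb1 and Cks2 held 2 CCAAT matches each and H2-Aa held 1, with no TTTGAA match in these windows. A window was found for 33 of the 47 called genes. Of 25 called lower, 17 (68%) held CCAAT and 8 (32%) held TTTGAA. Among the 14 of them with a role in mitosis or the chromosome cycle, the counts were 11 (78.6%) and 7 (50%). Of 8 called higher, 2 (25%) held each motif. Over all 27025 genes with a window the shares were 32.7% and 14.4%. These matches are letters in a window and were not tested as binding sites.

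Values are log2 expression levels, array medians lay between 2.40 and 2.45, and replicate pools had an r of 0.989 to 0.992 over all genes. The tissue label was checked with fibre genes. The 15 fast fibre genes, such as Myh4, Myh1 and Actn3, had a mean level of 11.02 to 11.47 in every group, and the 10 slow fibre genes 5.71 to 6.48. The 2 pools of 3 d overload differed in genes of blood and marrow cells. Pool 1 of 3 d overload held Elane at 5.21 and Mpo at 5.02, granule enzymes of granulocyte precursors, and no other pool held more than 1.75 of Elane or Mpo. Its neutrophil list averaged 4.77 against 2.37 in pool 2. The lists of blood and marrow cells are given with and without this pool.

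Over both times, 47 of 22180 genes (0.212%) passed a Benjamini-Hochberg adjusted p of 0.05 in limma with day as a covariate, 35 of them lower with the inhibitor (0.158%) and 12 higher (0.0541%). The 35 falls comprised 19 genes of mitosis and the chromosome cycle, 3 class II MHC genes, 3 genes of matrix and collagen binding, 1 histone gene and 9 others, roles that were assigned after the calls were seen. Sizes ran from 0.71 to 1.89 log2 units, and the median of all genes was 0.02. At an unadjusted p under 0.05, 1503 genes (6.78%) were lower and 1185 (5.34%) were higher. All 47 had the same sign at 3 d and 10 d, and in all 47 both pools with the inhibitor lay on 1 side of both pools without it at each time. That arrangement occurred downward in 1305 genes (5.88%) and upward in 1386 (6.25%) of all genes. In the 47, the equal sign and this arrangement largely follow from the call on these same pools and add no support. In 22 of the 47 the 4 pools with the inhibitor lay apart from the 4 without it irrespective of time. The share of all genes with this separation was not counted. The call on these same pools favours it, so it adds no support either.

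**Figure D1:**
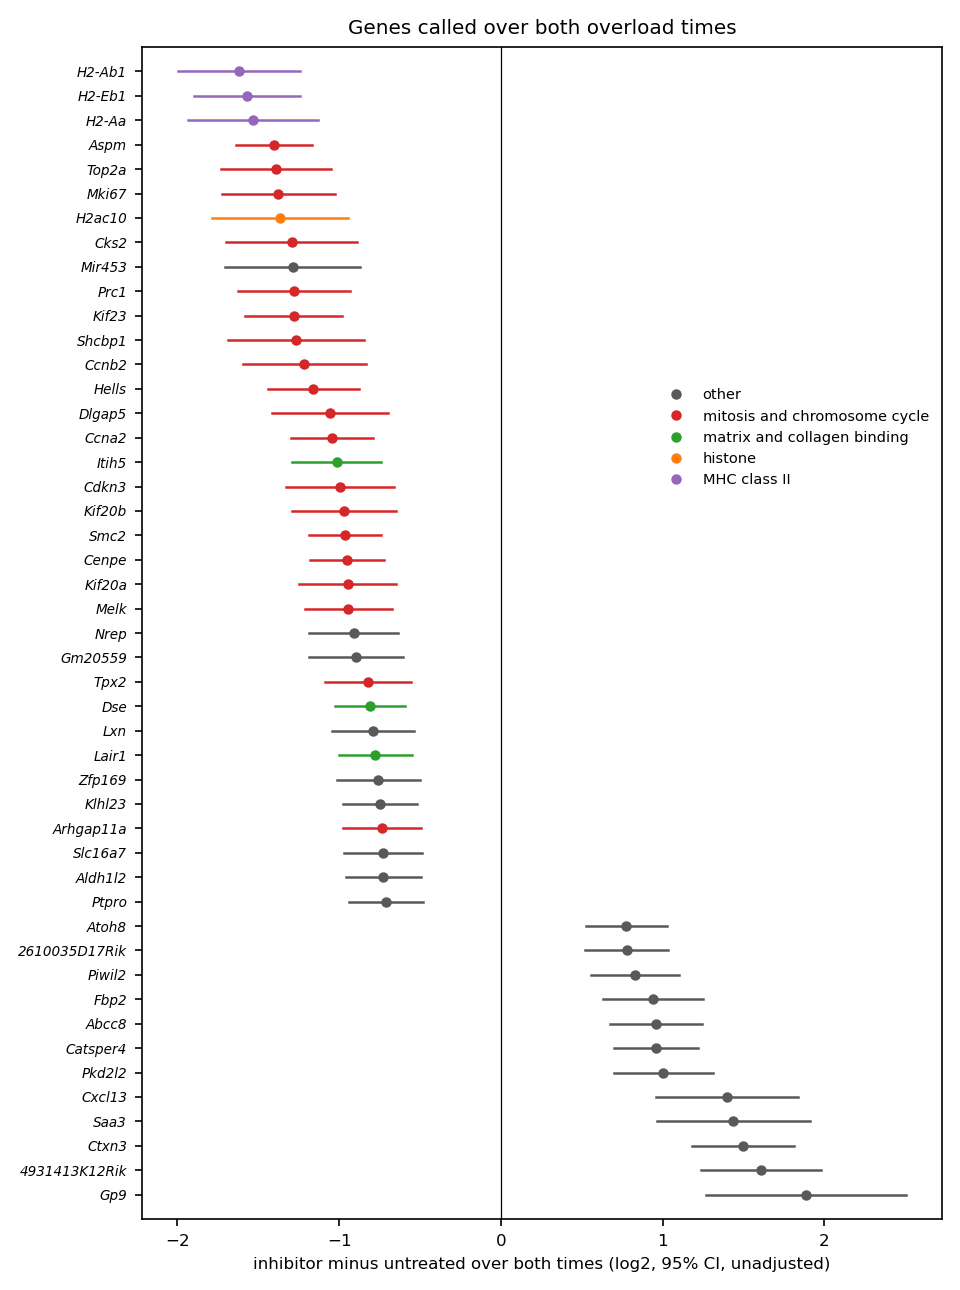
Difference with the inhibitor over both overload times for the 47 called genes (horizontal axis, log2, inhibitor minus none; bars, unadjusted 95% confidence intervals from limma, n = 4 pools per arm), coloured by role. Class II MHC genes and mitotic genes lie at the lower end, with H2-Ab1 at -1.62, and Gp9 lies at the upper end at 1.89.

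The number of calls rested on every pool. Left out in turn, the fit called 6 genes without 3 d overload pool 1 and 3 without pool 2, 0 without 3 d inhibitor pool 1 and 10 without pool 2, 21 without 10 d overload pool 1 and 9 without pool 2, and 18 without 10 d inhibitor pool 1 and 3 without pool 2. The sizes moved less: across these 8 fits each of the 47 differences stayed between 0.835 and 1.15 times its value. No sign could change, because in all 47 both inhibitor pools lay on 1 side of both others at each time. Genes called for a small spread among these same pools also tend to move little, so this adds no support. Of the 47, 22 were called in at least 1 fit. Aspm was called in 7 of 8, Ctxn3 in 6 and H2-Eb1 in 5.

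Among the 47 called genes the largest falls were those of class II MHC genes, which encode the chains that present peptides to helper T cells. H2-Ab1, the beta chain of I-A, was at 7.80 and 7.59 in the 3 d overload pools and 6.39 and 6.29 with the inhibitor. At 10 d it was at 7.50 and 8.10 without and 5.87 and 5.96 with the inhibitor. All 4 inhibitor pools lay below all 4 others and close to the pools without overload (5.93 and 5.79). H2-Ab1 fell 3.07-fold (log2 -1.62 ± 0.17 SE, adjusted p = 0.0158). H2-Eb1, the beta chain of I-E, was at 6.74 and 6.82 against 5.32 and 5.24 at 3 d, and at 6.74 and 7.40 against 5.41 and 5.44 at 10 d, a 2.97-fold fall (-1.57 ± 0.14, adjusted p = 0.0158). H2-Aa, the alpha chain of I-A, went from 6.23 and 5.92 to 4.64 and 4.79 at 3 d and from 5.96 and 6.73 to 4.57 and 4.71 at 10 d, a 2.90-fold fall (adjusted p = 0.0243). In both genes the groups did not overlap, as for H2-Ab1.

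The other class II genes stood lower or near 0 and none passed. In a list of 10 measured class II presentation genes, added after values were seen, 3 fell and 6 were lower at an unadjusted p under 0.05, with a median of -0.53. H2-DMa, which helps load peptides, differed by -0.78 (adjusted p = 0.0891) and Ciita, the class II transactivator, by -0.69 (adjusted p = 0.352). H2-Oa, H2-Ob and H2-Eb2 were between -0.16 and 0.04. With dim genes left out, 5 of the 10 remained, all negative at each time, with medians of -1.36 at 3 d and -1.64 at 10 d. A difference near 0 in a dim gene says little about its response. Without single pools 0 to 3 of the list were called, 1 of them without 3 d overload pool 1. The 11 dendritic cell genes, another list added after values were seen, had a median of -0.12, and 0 of them passed at either p. Their mean level was 2.55 to 3.07 across the pools, near the array medians of 2.40 to 2.45, which leaves little room for a fall. Among them Itgax, an integrin of dendritic cells and macrophages, was at 1.36 to 3.03 without and 1.77 to 2.80 with the inhibitor, which overlap. In tissue RNA of this kind, fewer cells of a type and less RNA per cell cannot be told apart.

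**Figure D2:**
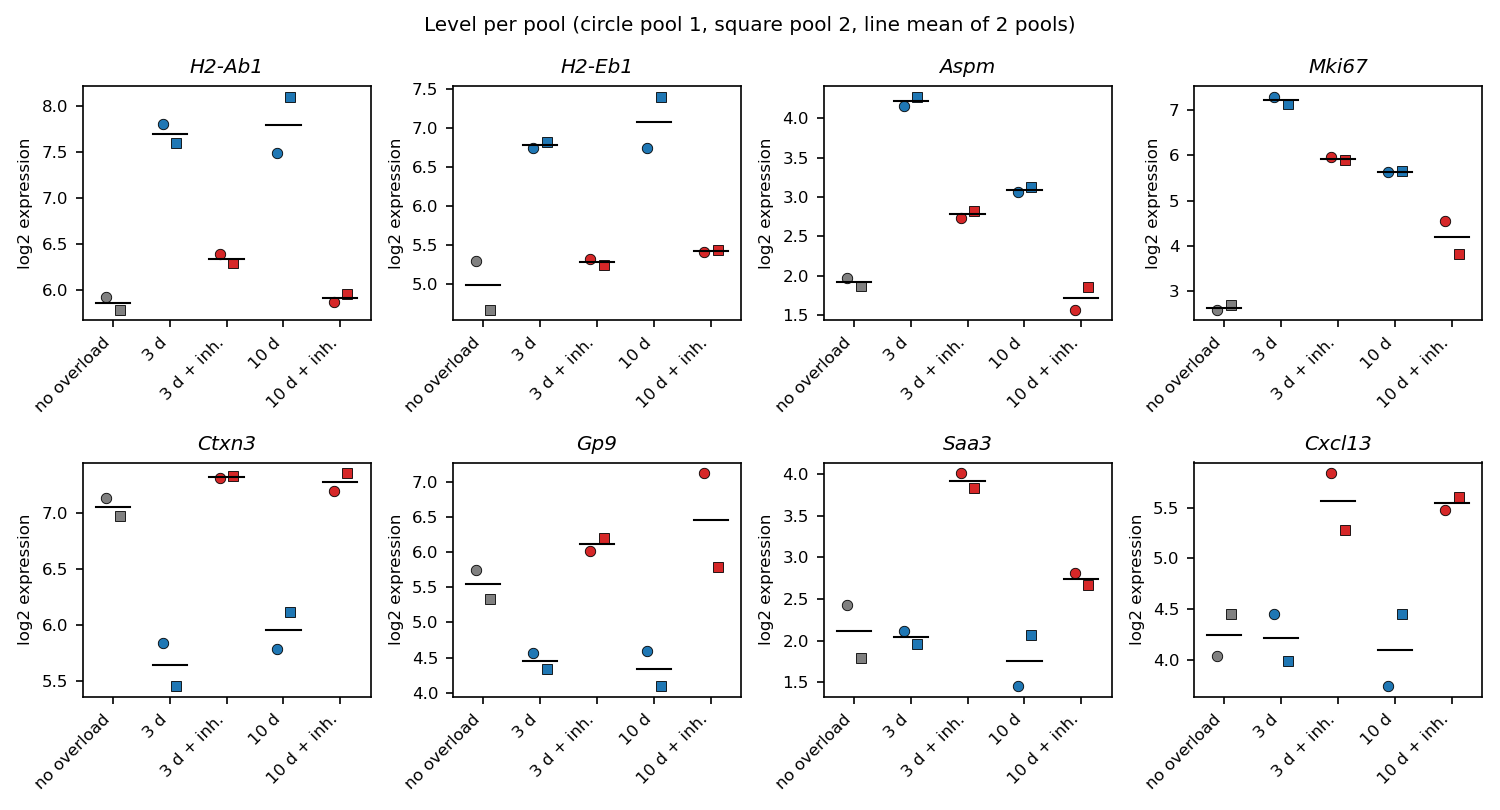
Log2 expression of 8 called genes in each of the 10 pools (circle, pool 1; square, pool 2; line, mean of 2 pools; grey without overload, blue overload, red overload with inhibitor). H2-Ab1, H2-Eb1, Aspm and Mki67 are lower with the inhibitor at both times, and Ctxn3, Gp9, Saa3 and Cxcl13 are higher at both times.

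Genes of mitosis formed the largest group of falls, with 19 genes that fell 1.66-fold to 2.65-fold. Aspm, which organises the poles of the mitotic spindle, had the smallest adjusted p of the comparison. It was at 4.15 and 4.27 at 3 d without the inhibitor and 2.73 and 2.82 with it, and at 3.06 and 3.13 against 1.57 and 1.86 at 10 d. The fall was -1.41 ± 0.10 (adjusted p = 0.0078), and the 10 d inhibitor pools were no higher than the pools without overload (1.97 and 1.87). Top2a, the topoisomerase that untangles replicated DNA, was at 6.66 and 6.49 against 5.33 and 5.49 at 3 d and at 4.50 and 4.80 against 3.25 and 2.83 at 10 d (-1.39 ± 0.15, adjusted p = 0.0158). Mki67, the proliferation marker that coats mitotic chromosomes, was at 7.30 and 7.14 against 5.97 and 5.89 at 3 d and at 5.62 and 5.66 against 4.55 and 3.83 at 10 d (-1.38 ± 0.15, adjusted p = 0.0206). In Top2a and Mki67 both groups were lower at 10 d than at 3 d, and the inhibitor pools at 10 d were above the pools without overload, where Mki67 was at 2.58 and 2.68.

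Further mitotic genes fell by more than 1 log2 unit. Cks2, a subunit of cyclin-dependent kinases, fell by 1.29 on the log2 scale, and Ccnb2, a mitotic cyclin, fell by 1.22. Prc1 and Kif23, which bundle and move the microtubules of the central spindle, fell by 1.28 each. Shcbp1 fell by 1.27. Hells, a chromatin remodeller of dividing cells, fell by 1.16, and Ccna2, a cyclin of S phase and mitosis, fell by 1.04; both were named after their values were seen. The histone gene H2ac10, which encodes an H2A protein and belongs to a family of near-identical copies, fell by 1.37, so its probe set may read related genes. The other mitotic falls, named after their values were seen, were Dlgap5, Cdkn3, Kif20a, Kif20b, Smc2, Cenpe, Melk, Tpx2 and Arhgap11a, at -0.73 to -1.05. In 3 of the 19 genes the inhibitor pools lay below the others irrespective of time, and in all 19 the mean with the inhibitor over both times was above the mean without overload. That mean includes the higher 3 d values. At 10 d both inhibitor pools lay below both pools without overload in Cks2, at 0.82 and 1.06 against 1.35 and 1.14, and in Aspm. In Top2a and Mki67 they lay above both.

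Of a list of 26 measured cell cycle genes, 7 fell, 19 were lower at an unadjusted p under 0.05 and all 26 had a negative difference, with a median of -0.75. Genes of mitosis lay at the lower end of the list. Cdk1, the kinase that drives entry into mitosis, was at -1.20 (adjusted p = 0.0916) and Plk1 at -0.96 (adjusted p = 0.076), while the replication genes Mcm2, Mcm5, Mcm6 and Pcna were at -0.11 to -0.24. Ccnd1, the cyclin of the G1 phase, was at -0.37 (adjusted p = 0.385). The list's mean level was 5.54 and 5.37 at 3 d without and 4.69 in both pools with the inhibitor, and 4.32 and 4.34 against 3.73 and 3.59 at 10 d. The groups lay apart at both times, and the pools without overload were lower still (3.17 and 3.16). Without single pools 0 to 5 members were called, 0 of them without 3 d overload pool 1, and the median stayed between -0.68 and -0.85.

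The 3 called genes of matrix and collagen binding fell at both times. Itih5, a serum-type inhibitor chain that binds hyaluronan, was at 5.92 and 5.81 against 5.04 and 5.13 at 3 d and at 7.38 and 7.33 against 6.05 and 6.14 at 10 d (-1.02 ± 0.12, adjusted p = 0.0247). Dse, an epimerase that makes dermatan sulfate, fell by 0.81 and Lair1, an inhibitory collagen receptor of leukocytes, fell by 0.78. Itih5 was higher at 10 d than at 3 d in both arms, and its groups lay apart within each time. The 9 other falls were Mir453, Nrep, Gm20559, Lxn, Zfp169, Klhl23, Slc16a7, Aldh1l2 and Ptpro, at -0.71 to -1.29. Among them Slc16a7 carries lactate and pyruvate, Lxn inhibits carboxypeptidases and Aldh1l2 is a mitochondrial folate enzyme.

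Rises were fewer, and 1 of the 12, Gp9, belonged to a gene list. Gp9, a platelet glycoprotein of the von Willebrand factor receptor, was at 4.57 and 4.34 against 6.02 and 6.20 at 3 d and at 4.60 and 4.09 against 7.12 and 5.79 at 10 d, a 3.70-fold rise (1.89 ± 0.27, adjusted p = 0.0425). All 4 inhibitor pools lay above all other pools, those without overload included (5.75 and 5.33). Ctxn3, a small membrane protein, was at 5.83 and 5.45 against 7.31 and 7.32 at 3 d and at 5.79 and 6.12 against 7.19 and 7.35 at 10 d (1.5 ± 0.14, adjusted p = 0.0158). The inhibitor pools lay just above the level without overload (7.13 and 6.97). Fbp2, the muscle fructose bisphosphatase, reached the range of the pools without overload: 6.28 and 6.61 against 7.56 and 7.13 at 3 d, 6.59 and 6.30 against 7.39 and 7.47 at 10 d, and 7.57 and 7.12 without overload (0.94 ± 0.14, adjusted p = 0.0425).

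In Saa3 and Cxcl13, too, the inhibitor pools exceeded every pool without the inhibitor, overloaded or not. Saa3, an acute phase protein made by macrophages and stromal cells, was at 2.12 and 1.96 against 4.01 and 3.84 at 3 d and at 1.45 and 2.06 against 2.81 and 2.67 at 10 d (1.44 ± 0.21, adjusted p = 0.0425). Cxcl13, a chemokine that attracts B cells, was at 4.45 and 3.98 against 5.84 and 5.29 at 3 d and at 3.74 and 4.45 against 5.48 and 5.61 at 10 d (1.40 ± 0.19, adjusted p = 0.0425). The uncharacterised 4931413K12Rik rose by 1.61. The remaining rises were Pkd2l2 (log2 1), Catsper4 (0.96), Abcc8, the sulfonylurea receptor (0.96), Piwil2 (0.83), 2610035D17Rik (0.78) and Atoh8, a transcription factor (0.77). Saa3, Pkd2l2, Catsper4, Piwil2 and Abcc8 had low levels, with means of 1.90, 2.53, 2.71, 2.81 and 3.21 in the overload pools without the inhibitor. The array medians were 2.40 to 2.45. In addition, 2 further genes that the naming rule reached did not pass: Sln, the sarcolipin of the calcium pump, at 1.28 (adjusted p = 0.0509), and Pcx, pyruvate carboxylase, at 0.57 (adjusted p = 0.0557).

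None of the 6 measured PDGF ligands and receptors passed. Pdgfra was at 7.82 and 7.71 against 7.64 and 7.66 at 3 d and at 7.94 and 8.32 against 7.45 and 7.66 at 10 d (-0.35 ± 0.14, adjusted p = 0.368). Its 4 inhibitor pools lay below the 4 others, and its unadjusted p of 0.0347 was the only one of the 6 under 0.05. Pdgfrb differed by -0.09 ± 0.15 over both times (adjusted p = 0.868), with 0.22 at 3 d and -0.39 at 10 d and an unadjusted p of 0.0256 for the difference between the times. The sign of Pdgfrb turned without 10 d overload pool 2, and that of Pdgfa without 3 d overload pool 1 or 3 d inhibitor pool 1. Of the ligands, Pdgfa was at 0.02, Pdgfb at 0.29, Pdgfc at -0.46 and Pdgfd at -0.23 (adjusted p of 0.958, 0.485, 0.429 and 0.490). These sizes rested on single pools at 10 d. Without 10 d overload pool 2 Pdgfra was at -0.22, Pdgfc at -0.28 and Pdgfd at -0.14, without 10 d overload pool 1 Pdgfc was at -0.69, and without 10 d inhibitor pool 1 Pdgfb was at 0.19.

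Genes downstream of the receptors were also below the threshold. Of 19 receptor adaptors and transducers 0 passed and 1 was lower at an unadjusted p under 0.05, the adaptor Shc1 at -0.29, with a list median of -0.02. Of 24 ERK feedback and early response genes 0 passed, 2 were lower and 3 higher unadjusted, with a median of 0.19. The inhibitors of Ras signalling Spred1 and Spred3 were both at -0.43 and the phosphatase Dusp6 at -0.24, while the transcription factors Etv5 and Atf3 were at 0.56 and 0.52 (adjusted p of 0.222 and 0.300). The list median was 0.39 at 3 d and -0.13 at 10 d, and over both times it was -0.03 without 3 d overload pool 2. Fos was at 7.49 and 6.34 against 8.27 and 8.17 at 3 d and at 6.36 and 6.87 against 6.36 and 5.57 at 10 d, so both inhibitor pools were above the overload pools at 3 d, and neither was at 10 d, where the second lay below both.

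Matrix genes were lower as a group without any of them passing. Of 22 fibrillar and interstitial matrix genes 0 passed in limma, 20 were lower at an unadjusted p under 0.05 and 21 had a negative difference, with a median of -0.79 against 0.02 for all genes. With a mean-variance trend in limma 12 of the 22 passed, all lower. In 20 of the 22 both inhibitor pools lay below both others at each time. Of all genes, 5.88% had this arrangement and 6.78% were lower at an unadjusted p under 0.05 in limma. Col1a1, the alpha 1 chain of type I collagen, was at 10.31 and 10.17 against 9.43 and 9.32 at 3 d and at 10.39 and 11.25 against 9.60 and 9.65 at 10 d (-1.03 ± 0.18, adjusted p = 0.076). Fn1, fibronectin, was at -1.02, Tnc, tenascin C, at -1.21 and Col1a2 at -1.11 (adjusted p of 0.0868, 0.134 and 0.0891). Lox, which cross-links collagen, and Eln, elastin, were at -0.27 and 0.28 with unadjusted p of 0.306 and 0.184. The median was -0.51 at 3 d and -1.12 at 10 d, where it was -0.66 without 10 d overload pool 2 and -1.58 without pool 1, with 12 of the 22 then passing, all lower. At 10 d the overload pools themselves differed, with a list mean of 8.25 in pool 1 and 9.08 in pool 2 against 7.73 and 7.68 with the inhibitor, and without that second pool the median over both times was -0.58.

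Basement membrane genes and proteases had smaller differences. Of 14 basement membrane genes 10 were lower unadjusted and 0 passed, with a median of -0.38 (-0.15 at 3 d and -0.69 at 10 d). Col18a1 was at -0.66 (adjusted p = 0.0757), Lamb1, a laminin chain, at -0.72, and Col4a1 at -0.49. Of 15 matrix proteases and inhibitors 8 were lower and 1 higher unadjusted, and 0 passed, with a median of -0.53 (-0.31 without 10 d overload pool 2). Mmp14, a membrane collagenase, was at -1.04, Ctsk, cathepsin K, at -1.09 and Adamts5, an aggrecan-degrading protease, at -0.56 (adjusted p of 0.172, 0.209 and 0.0717), while Adamts1 was at 0.33.

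**Figure D3:**
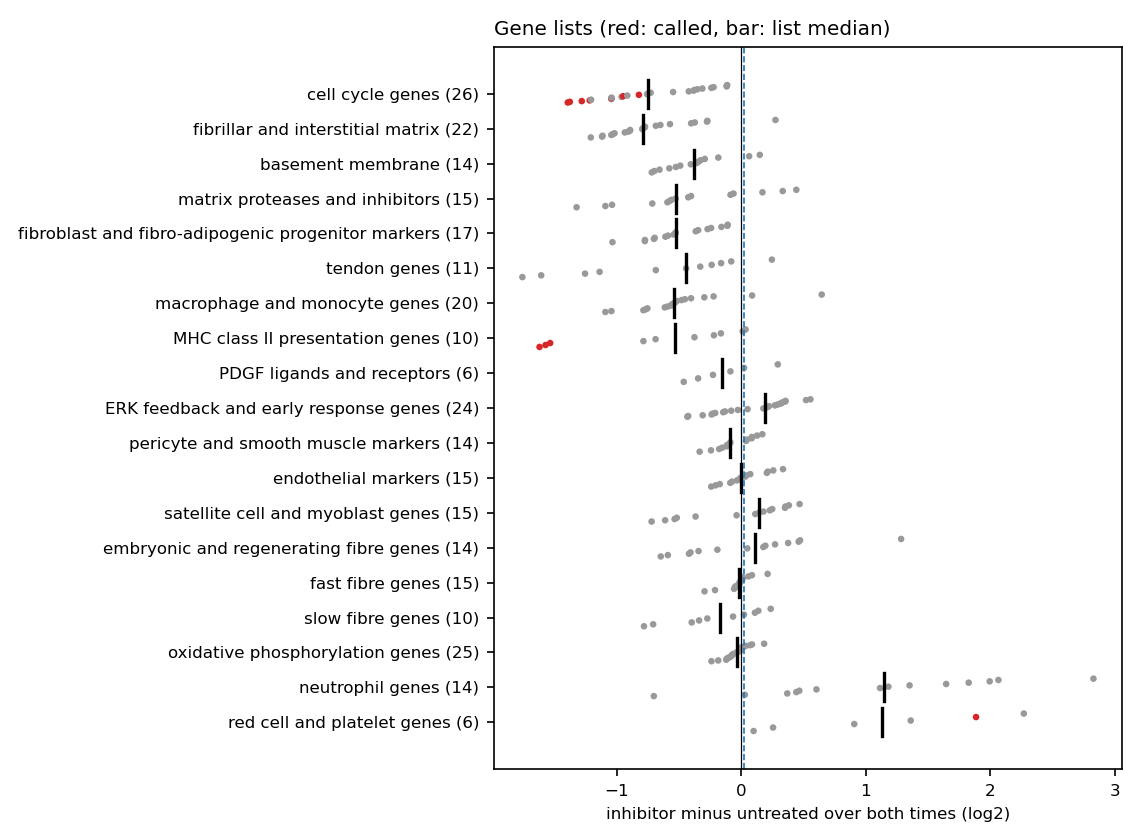
Differences over both times (horizontal axis, log2, inhibitor minus none) of the measured members of 19 gene lists, with the number of members in brackets. Each point is a gene, red points passed, the bar is the list median and the dashed line the median of all genes (0.02); cell cycle, matrix, fibroblast and macrophage lists lie mostly below 0, and fast fibre and oxidative phosphorylation lists lie around 0.

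Markers of fibroblasts, which carry Pdgfra, were lower. Those of pericytes and endothelium had medians near 0 over both times, with opposite signs at 3 d and 10 d. Of 17 fibroblast and fibro-adipogenic progenitor markers 12 were lower unadjusted, 0 passed and all 17 had a negative difference, with a median of -0.53. Thy1 was at 6.24 and 6.25 against 5.36 and 5.08 at 3 d and at 6.21 and 7.02 against 5.69 and 5.45 at 10 d (-1.03 ± 0.17, adjusted p = 0.0717). Cd34 was at -0.53 and Dpp4, a surface peptidase of progenitors, at -0.69 (adjusted p of 0.0779 and 0.0916). Of 14 pericyte and smooth muscle markers 1 was lower unadjusted, Mcam at -0.33, and the median was -0.09 (0.14 at 3 d and -0.20 at 10 d). Rgs5 was at -0.12 and Acta2 at -0.24. The 15 endothelial markers had a median of -0.01 (0.20 at 3 d and -0.13 at 10 d), with 2 higher unadjusted, Vwf at 0.34 and Eng at 0.21. In the pericyte and endothelial lists the mean levels of the pools lay apart at each time. They were higher with the inhibitor at 3 d and lower at 10 d.

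Tendon genes held some of the largest values among genes that did not pass. Of 11 tendon genes 5 were lower unadjusted, with a median of -0.44 that ran from -0.23 without 10 d overload pool 2 to -0.70 without 10 d overload pool 1. Tnmd, tenomodulin, was at 6.12 and 5.77 against 4.83 and 4.29 at 3 d and at 8.03 and 9.12 against 6.04 and 6.86 at 10 d (-1.76 ± 0.30, adjusted p = 0.0717). Its pools were apart within each time. Mkx, a tendon transcription factor, was at -1.25 (adjusted p = 0.0671) and Kera, keratocan, at -1.61 (adjusted p = 0.0891), while Scx, scleraxis, was at -0.16 (adjusted p = 0.757).

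Lists of macrophage and neutrophil genes had medians of opposite sign, and no member of either passed over both times. Of 20 macrophage and monocyte genes 16 were lower unadjusted and 0 passed, with a median of -0.54 (-0.47 without 3 d overload pool 1). At 10 d the median was -0.54 with 7 lower unadjusted, and without 10 d overload pool 2 it was -0.24 with 0 lower unadjusted. Csf1r, the receptor for macrophage colony-stimulating factor, was at 7.89 and 7.70 against 7.18 and 6.93 at 3 d and at 6.64 and 7.17 against 6.08 and 6.14 at 10 d (-0.77 ± 0.13, adjusted p = 0.076). Ms4a7, a macrophage membrane protein, was at -1.09 and Ccr2, the chemokine receptor of inflammatory monocytes, at -1.04 (adjusted p of 0.0951 and 0.116). Cd68 was at 0.09 and Ly6c2, a marker of inflammatory monocytes, at 0.65, so the list was not uniform. The list's summed linear level was 3952 to 4529 at 3 d without and 3016 to 3567 with the inhibitor, and 1342 to 2009 without and 1100 to 1209 with it at 10 d.

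Of 14 neutrophil genes 7 were higher unadjusted and 0 passed, with a median of 1.15, and this rested on the times unequally. The median was -0.01 at 3 d and 2.25 at 10 d. The list's mean level was 4.77 and 2.37 at 3 d without and 3.63 and 3.44 with the inhibitor, so the 3 d inhibitor pools lay between the overload pools. At 10 d it was 1.87 and 1.83 without and 4.24 and 3.89 with the inhibitor, and the groups lay apart. The 3 d direction turned with the pool left out. Without 3 d overload pool 1 the median was 1.80 over both times, where 2 of the 14 passed, both higher, and 1.17 at 3 d. Without 3 d overload pool 2 it was 0.80 over both times and -0.63 at 3 d, with 12 of 14 negative and 1 passing, lower. At 10 d 2 of the 14 passed, Csf3r and Lcn2, both higher. Retnlg, a resistin-like protein of neutrophils, was at 5.58 and 1.62 against 5.25 and 4.94 at 3 d and at 2.03 and 1.09 against 6.07 and 5.38 at 10 d (2.83 ± 0.84, adjusted p = 0.224). The 8 granulocyte precursor genes of marrow had a median of -0.23 with 0 passing at either p, -0.84 at 3 d and 0.37 at 10 d. Without 3 d overload pool 1 the median over both times was 0.19 and 1 gene passed, higher, and without 3 d overload pool 2 it was -0.46. Their summed linear level was 24.7 to 173 at 3 d and 18.4 to 23.8 at 10 d without and 43.0 to 48.4 and 30.7 to 37.6 with the inhibitor.

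Red cell and platelet genes, of which 6 of 13 listed were measured, were all positive over both times with a median of 1.13 (1.46 without 3 d overload pool 1 and 0.73 without 10 d inhibitor pool 1), and 1 rose, Gp9. At 3 d 3 of the 6 were negative, with a median of 0.33, and at 10 d all 6 were positive, with a median of 1.6. Without 3 d overload pool 1 the 3 d median was 0.81, with 5 of the 6 positive, and without 3 d overload pool 2 it was 0.19. Pf4, platelet factor 4, was at -0.77 at 3 d and 0.97 at 10 d. Ppbp, a platelet chemokine, was at 7.40 and 5.85 against 7.91 and 8.70 at 3 d and at 5.99 and 6.27 against 9.54 and 8.44 at 10 d (2.27 ± 0.41, adjusted p = 0.0824). Itga2b, the platelet integrin, was at 0.91 and Slc4a1, the red cell anion exchanger, at 1.36 (adjusted p of 0.143 and 0.606). The list's summed linear level was 160 to 325 at 3 d and 129 to 134 at 10 d without the inhibitor, against 373 to 563 and 501 to 1031 with it. The part of blood cell content in the differences of other genes was not tested.

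**Figure D4:**
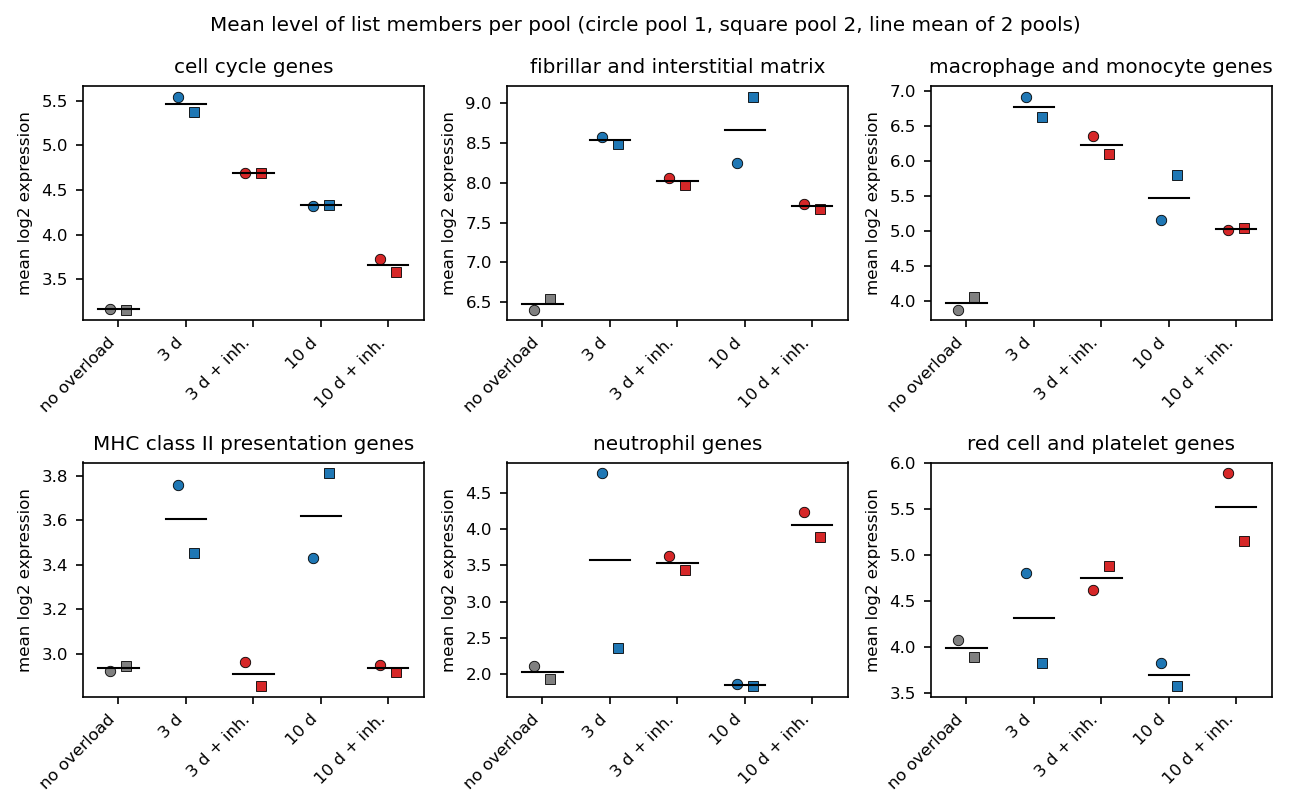
Mean log2 level over the members of 6 gene lists in each of the 10 pools (circle, pool 1; square, pool 2; line, mean of 2 pools; grey without overload, blue overload, red overload with inhibitor). Cell cycle, matrix, macrophage and class II lists are lower with the inhibitor at each time, while 3 d overload pool 1 is the highest of the 10 pools in the neutrophil list (4.77) and lies between the 3 d inhibitor pools in the red cell and platelet list (4.80).

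Fibre and metabolic gene lists had medians near 0 over both times. Of 15 fast fibre genes 1 was lower unadjusted, Pvalb at -0.29, and the median was -0.01. Of 10 slow fibre genes 2 were lower unadjusted, Myl3 at -0.71 and Atp2a2 at -0.40, with a median of -0.17. The 25 oxidative phosphorylation genes had a median of -0.03 and the 19 fatty acid oxidation genes 0.10, with 0 of either list passing at an adjusted or unadjusted p of 0.05. The fatty acid oxidation median was 0.29 at 3 d and -0.12 at 10 d. At 3 d the list's mean level was 7.29 to 7.39 without and 7.67 to 7.75 with the inhibitor, and at 10 d the groups overlapped. Among 15 satellite cell and myoblast genes 4 were lower and 2 higher unadjusted, and 0 passed. Myog, a factor of differentiating myoblasts, was at -0.61 and Myod1 at 0.38 (adjusted p of 0.277 and 0.35). Of 14 embryonic and regenerating fibre genes 4 were higher unadjusted and 1 lower, the cardiac actin Actc1 at -0.65, and 6 had a negative difference. Sln was at 7.57 and 7.82 against 8.78 and 8.46 at 3 d and at 8.52 and 8.89 against 10.60 and 10.10 at 10 d, and Xirp1, Ankrd2 and Ankrd1, which respond to stretch, were at 0.47, 0.46 and 0.38. The inhibitor pools of Sln lay above the others within each time, far above the level without overload (mean 3.09).

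Each time was then taken alone in a fit with 1 mean per group over all 10 arrays. At 3 d 0 genes (0%) passed in limma, with 2011 at an unadjusted p under 0.05 and a smallest adjusted p of 0.0907. With a mean-variance trend 15 passed, and without 3 d overload pool 2 the count was 7. At 10 d 23 genes (0.104%) passed, 18 lower and 5 higher, and 7 of them were among the 47. Without 10 d overload pool 1 the count at 10 d was 180, without 10 d inhibitor pool 1 it was 1, and it was 0 without 3 d inhibitor pool 1 or pool 2, 10 d overload pool 2 or 10 d inhibitor pool 2. The 7 shared genes were H2-Ab1, Top2a, Prc1, Aspm, Itih5, Nrep and Ctxn3. The largest fall at 10 d was that of Prnd, which encodes the prion-like protein doppel, at -3.32 ± 0.32 (adjusted p = 0.0256). Over both times Prnd was at -2.24 (adjusted p = 0.0862), the lowest value of all genes. The other falls at 10 d included Lamb1 (-1.20 ± 0.16, adjusted p = 0.0459), Col15a1 (-1.09 ± 0.14, adjusted p = 0.0417) and Sox4, a transcription factor (-1.72 ± 0.21, adjusted p = 0.0371). Csf3r, the receptor for granulocyte colony-stimulating factor, and Lcn2, a neutrophil lipocalin, rose by 1.23 and 2.72 at 10 d, beside 3 d values of -0.02 and 0.58.

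The difference between the inhibitor's effects at 10 d and 3 d was tested gene by gene, and 0 genes (0%) passed in limma, also with a mean-variance trend. At an unadjusted p under 0.05 there were 1434 genes, and the smallest adjusted p was 0.516. Without 3 d overload pool 2 the count was 14 and without 10 d overload pool 1 it was 2. The smallest unadjusted p values among named genes went, on the positive side, to Pf4, AB124611, Csf3r, Pilra, F2rl2 and Aldh1a2 and, on the negative side, to Prdm8, Gem, Adamts3, Trim62, Mx2 and Fkbp5. Of the 47 genes, 3 had an unadjusted p under 0.05 for this difference: Itih5 (-0.78 at 3 d and -1.26 at 10 d), Cdkn3 (-1.27 and -0.71) and Saa3 (1.89 and 0.99). Across the 22180 genes the differences at 3 d and 10 d, which come from separate pools, correlated at r = 0.255, a description over genes that are not independent.

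**Figure D5:**
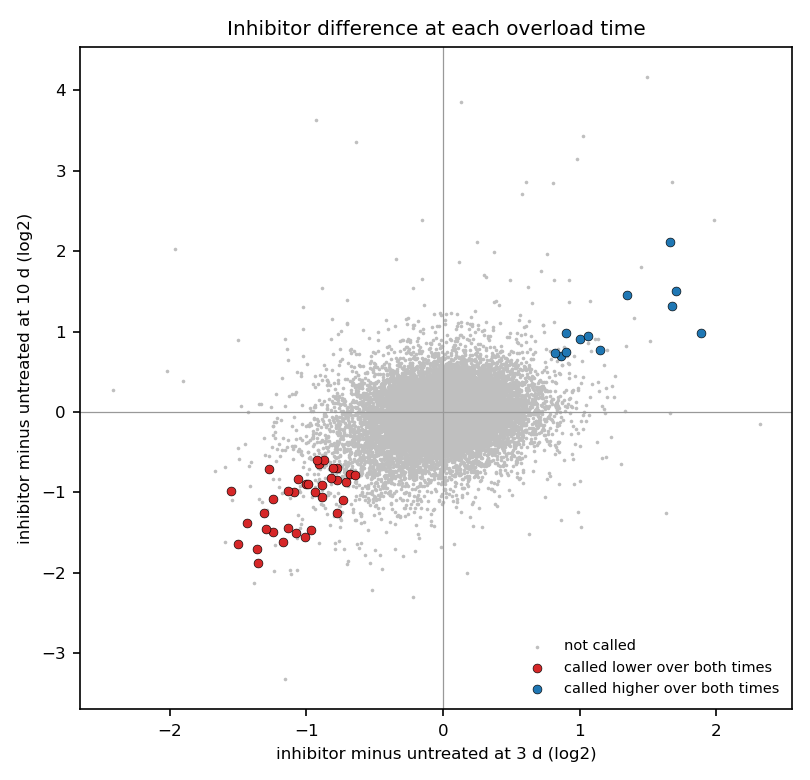
Difference with the inhibitor at 3 d (horizontal axis) and at 10 d (vertical axis), both log2, for 22180 genes (grey), with the 47 genes called over both times in red (lower) and blue (higher). The called genes lie in the quadrants of equal sign by the way they were called, and the grey genes that lie highest at 10 d have values near 0 or of either sign at 3 d.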

How the data were processed

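The values deposited by the authors are log2 levels of 41345 probe sets on 10 Affymetrix Mouse Gene 2.1 ST arrays, made with RMA, oligo and limma per the submitters' processing notes (versions not given in the sources used here). RMA equalises intensity distributions, and hides changes common to most transcripts. Of the probe sets, 23521 had 1 symbol, 1814 several and 16010 were not listed in the array annotation, and the brightest probe set stood for each of 22180 genes (1082 genes had several). No dim gene was left out.

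Genes were fitted with limma 3.58.1 in R 4.3.3 (lmFit and eBayes) on the 8 overload pools, with day and inhibitor as terms (5 residual and 3.76 prior degrees of freedom, prior SD 0.185 log2 units). Effects at each time and their difference came from 1 mean per group over all 10 arrays. The threshold was an adjusted p (Benjamini-Hochberg, all genes) of 0.05; values after ± are standard errors. Alternatives left out each pool, changed the model, scaling, dim filter, probe set rule or moderation. The code was tested on simulated data. The number of arrays limits the precision.

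The members, the 38 gene lists and the naming rule were chosen with earlier results of these data known, and 2 lists (class II and dendritic cell genes) were added after values were seen. The rule named the 12 largest called rises and falls of equal sign at both times (filled by smallest p), 6 genes per direction for the difference between times, up to 4 called members per list and the PDGF genes, leaving out uncharacterised symbols, small RNA and receptor segment genes. All other genes were named after their values were seen. Promoter windows came from RefSeq (GRCm38.p6).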

Additional observations from a re-analysis of the deposited data

How the results depend on the processing

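No paired analysis was possible because the labels give the pools no replicate numbers that link groups. Over both times the count of 47 was 3 with no day covariate, 28 after quantile normalization, 88 with dim genes left out, 241 (80 higher and 161 lower) with a mean-variance trend in limma, and 0 with no moderation, where 2561 genes had an unadjusted p under 0.05. It was within 1.5 times the reported count with 1 mean per group over 10 arrays (64) or 8 pools (49), a common median (47) and the mean over probe sets (49). All 28 genes of the quantile fit, all 47 in the fit without dim genes and 45 with the trend were shared. A common median shared 45 and the mean over probe sets 47. With 1 mean per group fewer of the 47 were shared, 34 over 10 arrays and 29 over 8 pools, although the counts were similar. With single pools left out, the count ran from 0 to 21 over both times, 0 to 7 at 3 d, 0 to 180 at 10 d and 0 to 14 for the difference between times. At 3 d the count of 0 became 5 with dim genes left out and 15 with the trend. At 10 d the count of 23 became 2 from the 8 overload pools alone, 47 with dim genes left out and 180 with the trend. With single pools left out the difference ran from -0.070 (without 3 d overload pool 1) to 0.081 for Pdgfa and from -0.21 to 0.034 (without 10 d overload pool 2) for Pdgfrb, so the sign of both turned. The cause of these changes was not tested, apart from the smaller number of genes or pools in some fits. Over both times, with 4 pools an arm, the smallest called difference was 0.71 log2 units, and some smaller ones passed under the alternatives above.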

Other observations

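Of 21 measured genes of the unfolded protein response and secretory pathway, 4 were lower at an unadjusted p under 0.05 and 0 passed, with a median of -0.11. Serpinh1, a chaperone of procollagen, was at 7.52 and 7.48 against 7.03 and 6.83 at 3 d and at 6.80 and 7.6 against 6.21 and 6.35 at 10 d (-0.74 ± 0.18, adjusted p = 0.147). Plod2 and Plod1, which hydroxylate collagen lysines, were at -0.60 and -0.33, while the general chaperone Hspa5 was at -0.18. The 21 TGF-beta and BMP genes had a median of 0.06, with 3 lower and 2 higher unadjusted and 0 passing. Tgfbi, a matrix protein induced by TGF-beta, was at -0.71, Bmp1, which trims procollagen, at -0.70, and Tgfb1 at -0.41, while Id1, a target of BMP signalling, was at 0.51.

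Among 17 angiogenic factors 5 were lower and 1 higher unadjusted, and 0 passed. Apln, the peptide apelin of growing vessels, was at 3.96 and 3.72 against 3.29 and 3.10 at 3 d and at 3.25 and 3.62 against 2.46 and 2.67 at 10 d (-0.76 ± 0.13, adjusted p = 0.0731). Its receptor Aplnr was at -0.78 (adjusted p = 0.16). Both lay lower with the inhibitor in each time's pools, while Vegfa and Vegfb were at 0.17 and 0.26. Of 18 ribosome biogenesis genes 14 were positive and 2 were higher unadjusted, Rrp12 at 0.58 and Wdr12 at 0.31, with a list median of 0.08 and 0 passing.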
